A study of Mus musculus with 10 samples.

Results

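SHP099 and vehicle were compared in the stromal and immune cells of mouse lung tumours, cell type by cell type, to find which responses were shared by cell types and which belonged to single ones. The cells were the single cells of 3 SHP099 mice and 3 vehicle mice that the authors' annotation placed neither in the tumour clusters 21 and 23 nor among its neutrophils or T cells. This left 11670 cells, 4193 from SHP099 mice and 7477 from vehicle mice, of the 21615 cells of these 6 mice (54.0%) and of 44986 cells in the series. They fell into 25 of the authors' clusters, and 14 clusters with 9377 cells had 10 cells or more in every mouse and were compared. The tumours came from KP cells, a lung adenocarcinoma line, given by vein to syngeneic mice (strain and age not stated). Treatment lasted 11 days with SHP099 alone, with vehicle alone, or, in 6 further mice used below as separate captures, with SHP099+SX682 or with SX682. Nodules were dissociated, live cells were enriched on magnetic beads, the 3 mice of a treatment were marked with hashtag oligonucleotides, and each treatment was run as 1 pool with 10x Genomics V(D)J v1.1 chemistry, which reads transcripts from their 5' ends. Treatment and capture therefore cannot be told apart, and the spread tested is that between mice within a pool.

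SHP099 is an allosteric inhibitor that holds the phosphatase SHP2, the product of Ptpn11, in its closed, inactive form. SHP2 sits below receptor tyrosine kinases and cytokine receptors, where it helps to load Ras with GTP and so to activate the kinases MEK and ERK, and in immune cells it also binds inhibitory receptors. It is present in nearly all cells, so a systemic inhibitor reaches the macrophages, lymphocytes, dendritic cells and vessels of a tumour as well as the cancer cells. SX682 is an inhibitor of CXCR1 and CXCR2, receptors through which chemokines bring neutrophils into tissue.

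The mice had 1023 to 1929 stromal and immune cells each under SHP099 and 1591 to 3740 under vehicle, with 4117333 to 6440059 unique molecular identifiers (UMIs) a mouse under SHP099 and 10043341 to 16920840 under vehicle. Over all these cells the median was 1685 to 2730 UMIs per cell in SHP099 mice and 3269 to 5122 in vehicle mice, but within each of the 14 compared clusters the gap was smaller or ran the other way. In cluster 20, used for its share only, it was 3966 to 6066 UMIs in SHP099 mice and 8267 to 15091 in vehicle mice. In cluster 26 it was 4366 to 5397 UMIs in SHP099 mice and 2355 to 2972 in vehicle mice. The pools shared 158 cell barcodes. Levels are CPM, a gene's counts as a rate per 1e6 of a mouse's summed UMIs in a cluster, scaled by the trimmed mean of M values, and a gene counts as called at an adjusted p below 0.05 (edgeR quasi-likelihood test, Benjamini-Hochberg within the cluster). Fold changes are SHP099 over vehicle with their SE, n = 3 mice each. For 70 pairs of a called gene and a cluster described below, the 3 SHP099 mice lay wholly above or below the 3 vehicle mice. This adds nothing to the calls, because some genes were named only where the groups did not overlap. In cluster 26, 676 of the 691 called genes did not overlap. Of all genes tested, 16.9% (cluster 27) to 30.0% (cluster 7) did not overlap.

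Clusters were named from lists of marker genes. Cluster 1 was B cell-like, with 7 of 7 markers at least 2-fold above the other clusters. Clusters 6 and 7 were NK cell-like, led by Gzma in 6 and by Gzmc and Xcl1 in 7. Cluster 13 was classical monocyte-like, 15 macrophage-like with the C1q genes, 25 macrophage-like with Gpnmb and Mfge8 on 6 of 9 markers, and 26 alveolar macrophage-like on 9 of 9. Clusters 17, 18 and 19 were like mature dendritic cells, cDC1 and cDC2 (5 of 7 markers). Clusters 3, 4, 14 and 27 were given no name and keep their numbers, 14 being led by Retnla and Ccl17. Cluster 4 was led by immunoglobulin genes such as Iglv1 and Igha, and by Jchain. Its 7 plasma cell markers summed to 19214 to 90873 CPM in SHP099 mice and 38042 to 97667 CPM in vehicle mice. Its 7 plasmacytoid dendritic cell markers summed to 1336 to 5970 CPM in SHP099 mice and 2419 to 4471 CPM in vehicle mice. No stromal cluster had 10 cells in every mouse, so endothelial-like and fibroblast-like cells enter only by their shares and by a fit on fewer cells.

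Under SHP099, shares of 3 clusters were lower, those of the unnamed cluster 16, of fibroblast-like and of lymphatic endothelial-like cells, and shares of 2 were higher. Of the 25 clusters, 5 (20%) had a called change in share of stromal and immune cells (edgeR quasi-likelihood test on cell numbers). Cluster 16, unnamed and led by Arg1 and Pf4, made up 0.674%, 1.37% and 0.196% in SHP099 mice and 12.1%, 8.39% and 20.8% in vehicle mice. Its log2 fold change was -4.17 ± 0.64 (SE), with an adjusted p of 0.00035 from edgeR. The highest SHP099 mouse was far below the lowest vehicle mouse, and the call held without any 1 mouse.

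Fibroblast-like cells of cluster 20 made up 0.363%, 0.403% and 0.391% in SHP099 mice and 2.49%, 2.00% and 1.70% in vehicle mice (log2 fold change -2.42 ± 0.55, edgeR adjusted p = 0.0078). They were low in every SHP099 mouse, on counts of 4 to 7 cells. Without SHP099 mouse 1 the adjusted p was 0.0555. The leading genes of cluster 11, called lymphatic endothelial-like, held the lymphatic markers Ccl21a, Mmrn1 and Lyve1. They also held Plvap, Cd34 and the general endothelial markers Cdh5, Egfl7 and Ramp2, so other endothelial cells may be part of the cluster. Lymphatic endothelial-like cells of cluster 11 made up 0.415%, 0.483% and 0.684% in SHP099 mice and 3.80%, 1.63% and 1.82% in vehicle mice (log2 fold change -2.23 ± 0.72, edgeR adjusted p = 0.0414). That call was lost without any of the SHP099 mice, vehicle mouse 1 or vehicle mouse 3, at adjusted p of 0.0754 to 0.147.

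B cell-like cells of cluster 1 made up 38.3%, 26.4% and 39.3% in SHP099 mice and 17.1%, 16.8% and 7.17% in vehicle mice (log2 fold change 1.34 ± 0.40, edgeR adjusted p = 0.0304). The unnamed cluster 9, led by Calca and Il1rl1, made up 1.04%, 1.29% and 1.08% in SHP099 mice and 0.455%, 0.513% and 0.126% in vehicle mice (log2 fold change 1.56 ± 0.44, edgeR adjusted p = 0.0283). The groups did not overlap in either cluster. As a share of all cells, tumour cells, neutrophils and T cells included, the log2 fold changes were 0.94 and 1.14 with adjusted p of 0.0978 and 0.0574, so both calls depend on the denominator. Both were also lost without SHP099 mouse 1, SHP099 mouse 3 or vehicle mouse 3 (adjusted p of 0.0561 to 0.0938), and that of cluster 9 without SHP099 mouse 2 (0.0507).

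**Figure D1:**
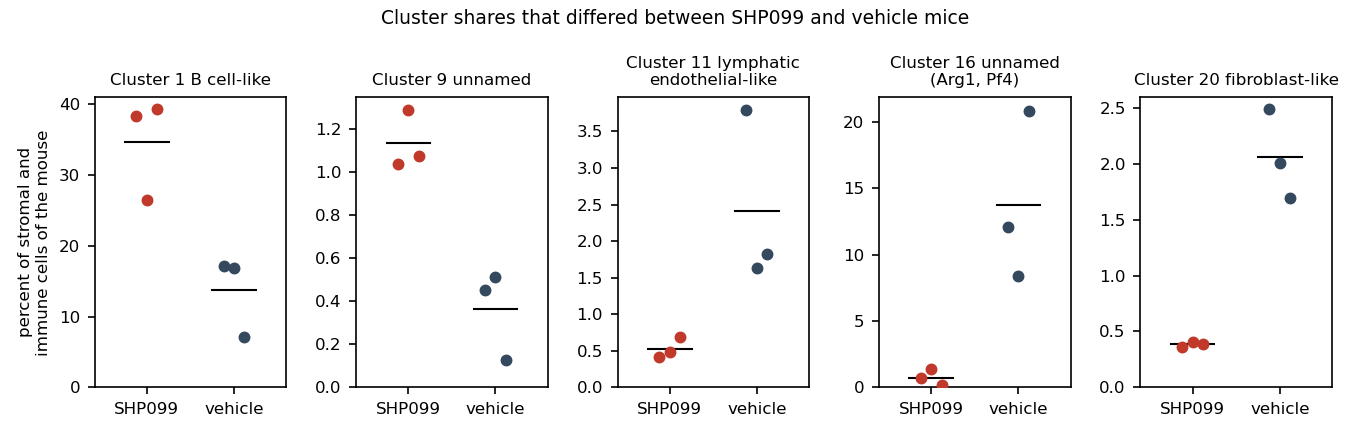
Share of stromal and immune cells (percent, axes from 0) in each cluster with a called change, with 1 point per mouse, a bar at the mean, and SHP099 mice left of vehicle mice. Cluster 16 lies at 0.196% to 1.37% in SHP099 mice and 8.39% to 20.8% in vehicle mice, and cluster 1 lies higher in each SHP099 mouse.

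Gene responses were found in lymphoid and in myeloid cells. In the alveolar macrophage-like cluster 26, 349 of 7681 genes were higher in SHP099 mice (4.54%) and 342 lower (4.45%). In the macrophage-like cluster 25, 341 of 8529 were higher (4.00%) and 237 lower (2.78%), and in the macrophage-like cluster 15, 203 of 8849 were higher (2.29%) and 224 lower (2.53%). In B cell-like cells of cluster 1, 237 of 5819 were higher (4.07%) and 346 lower (5.95%). In NK cell-like cells of cluster 6, 206 of 3942 were higher (5.23%) and 295 lower (7.48%), and in those of cluster 7, 73 of 1298 were higher (5.62%) and 88 lower (6.78%). In these 3 lymphoid clusters more genes were lower than higher. With the trend on transcript length removed, an alternative chosen after seeing the data, 200 were higher and 211 lower in cluster 1, 159 and 163 in cluster 6, and 51 and 48 in cluster 7.

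Among dendritic cells, the cDC2-like cluster 19 had 179 of 5570 genes higher (3.21%) and 223 lower (4.00%), the cDC1-like cluster 18 had 60 of 5030 higher (1.19%) and 97 lower (1.93%), and the mature cluster 17 had 98 of 3476 higher (2.82%) and 92 lower (2.65%). The monocyte-like cluster 13 had 111 of 2868 higher (3.87%) and 79 lower (2.75%). Cluster 14 had 96 of 3696 higher (2.60%) and 92 lower (2.49%), cluster 3 had 22 of 1209 each way (1.82% and 1.82%), and cluster 4 had 16 of 1402 higher (1.14%) and 3 lower (0.214%). In cluster 27, with 12 to 17 cells a mouse, edgeR called 0 of 248 genes either way (0% and 0%), against 21 at an unadjusted p below 0.05, and DESeq2 called 1. Leaving out each mouse in turn gave lowest counts of called genes of 480 in cluster 26 (without SHP099 mouse 1), 322 in cluster 25, 163 in cluster 15, 316 in cluster 1 and 202 in cluster 19 (each without vehicle mouse 1), 324 in cluster 6 and 78 in cluster 18 (without vehicle mouse 2), and 5 in cluster 4 (without SHP099 mouse 3). They were 71 in cluster 7 and 86 in cluster 14 (without SHP099 mouse 2), 90 in cluster 13 (without vehicle mouse 1), 119 in cluster 17 (without SHP099 mouse 1) and 22 in cluster 3 (without vehicle mouse 3).

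**Figure D2:**
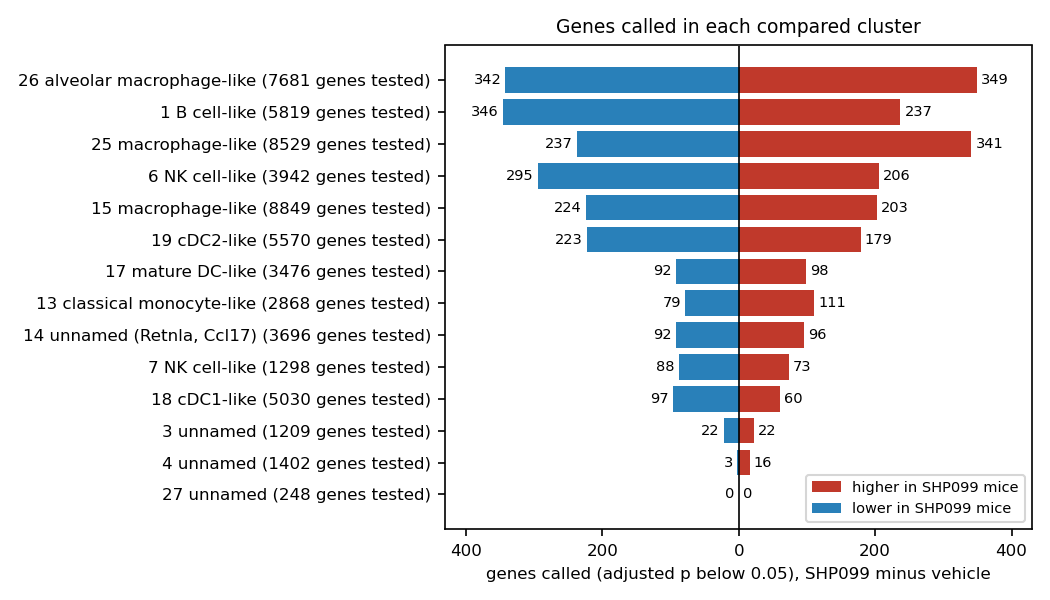
Number of genes called higher (right) and lower (left) in SHP099 mice than in vehicle mice in each of the 14 compared clusters (edgeR, adjusted p below 0.05). Cluster 26 has the most calls, 349 higher and 342 lower, and cluster 27 has 0.

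A shared response was defined as a gene called in the same direction in 3 or more clusters and in none the other way. Of 7898 genes tested in 3 or more clusters, 178 were shared higher (2.25%) and 209 shared lower (2.65%). Those called higher in the most clusters included Rps29, Rpl41 and Chchd2, which serve the ribosome and the respiratory chain. Those called lower in the most included Rplp0, Eif3f, Pfn1 and Actb, which serve translation and the actin cytoskeleton. The chaperone gene Hspe1, the class I gene H2-T23 and the growth factor gene Vegfa were also shared higher.

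Rps29 (a small ribosomal subunit protein), Rps28, Rps21 and Rpl41 were each called higher in 13 clusters. In cluster 1, Rps29 stood at 2855, 2600 and 2881 CPM in SHP099 mice and 1366, 1435 and 1342 CPM in vehicle mice (log2 fold change 1.01 ± 0.09, edgeR adjusted p = 4.1e-11). In cluster 26 it stood at 872, 898 and 872 CPM in SHP099 mice and 596, 588 and 645 CPM in vehicle mice. The groups did not overlap in either cluster. Chchd2, a regulator of the respiratory chain on chromosome 5 (129881156 to 129887470, minus strand, GRCm38), was higher in 12 of 13 clusters. In cluster 15 it stood at 461, 545 and 512 CPM in SHP099 mice and 249, 252 and 280 CPM in vehicle mice (log2 fold change 0.96 ± 0.10, edgeR adjusted p = 1.95e-05).

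Of 30 nuclear genes of oxidative phosphorylation, all tested, 23 were higher and 0 lower in cluster 25, with a median log2 fold change of 0.51 beside -0.01 over all genes there. In cluster 26, 17 were higher, in cluster 15, 13, in cluster 14, 8, and in clusters 1 and 6, 6 and 4, with 1 and 2 lower. Over all genes tested, 2.29% (cluster 15) to 5.23% (cluster 6) were called higher in these clusters. Cox7c, a subunit of cytochrome c oxidase, stood in cluster 25 at 942, 903 and 981 CPM in SHP099 mice and 553, 550 and 515 CPM in vehicle mice (log2 fold change 0.80 ± 0.08, edgeR adjusted p = 5.42e-07). Cox7c, Cox17, Atp5e and Atp5md were each called higher in 11 of 13 clusters. With the trend on transcript length removed, they were called higher in 9, 11, 9 and 11. Genes of the mitochondrial genome were also called higher in cluster 1, 9 of 13 with 1 lower, and in cluster 6, 8 of 12. In cluster 26, 0 were higher and 9 of 13 lower, and in cluster 25, 0 were higher and 3 lower. Among all genes, 4.07% were higher in cluster 1 and 5.23% in cluster 6, and 4.45% were lower in cluster 26 and 2.78% in cluster 25.

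Among ribosomal protein genes most calls were lower in macrophages. In cluster 26, 6 of 85 were higher and 56 lower, and in cluster 25, 9 of 83 were higher and 46 lower, while in cluster 1, 25 of 83 were called each way. Of all genes, 4.54% were higher and 4.45% lower in cluster 26, 4.00% and 2.78% in cluster 25, and 4.07% and 5.95% in cluster 1. Rplp0, the stalk protein of the large subunit on chromosome 5 (115559467 to 115563727, plus strand), was lower in 13 of 14 clusters. In cluster 26 it stood at 1189, 1195 and 1204 CPM in SHP099 mice and 2215, 2325 and 2195 CPM in vehicle mice (log2 fold change -0.91 ± 0.07, edgeR adjusted p = 1.76e-10). Eef1a1, which brings transfer RNA to the ribosome, and Eif3f, a subunit of initiation factor 3, were each lower in 11 clusters. Ribosomal genes have many processed pseudogenes, and the sources used here do not say how reads were divided among such copies.

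The direction of a change went with transcript length. Shared higher genes had a median transcript length of 1783 bases and shared lower genes 1153 bases, beside 2556 bases over all 7898 genes, of which 7852 had a length. Lengths of 600 to under 2000 bases held 83.1% of the shared lower genes, 28% of the shared higher genes and 34.6% of all genes, and lengths under 400 bases held 5.71% of the shared higher genes. Genes of 600 to under 2000 bases took 59.2% to 59.5% of UMIs in SHP099 mice and 61.7% to 62.6% in vehicle mice. Removing each mouse's trend on transcript length left 143 shared higher and 139 shared lower genes. The share of called genes that were higher was 57.6% in cluster 15 and 55.2% in cluster 18 with that correction, against 47.5% and 38.2% without it. It was larger with the correction in 9 of the 13 clusters with calls, and smaller in cluster 13 (56.4% against 58.4%), cluster 14 (47.7% against 51.1%), cluster 17 (50.3% against 51.6%) and cluster 3 (48.6% against 50%). The corrected fit covered every gene and cluster, and of the 70 pairs described it lost 1, Gzma in cluster 6. Calls of shared higher genes moved both ways. With the correction Uqcr11 was called higher in 4 clusters instead of 8, and Cox6c in 6 instead of 9. Tomm7 was called higher in 13 instead of 11, and Snrpg in 12 instead of 6.

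**Figure D3:**
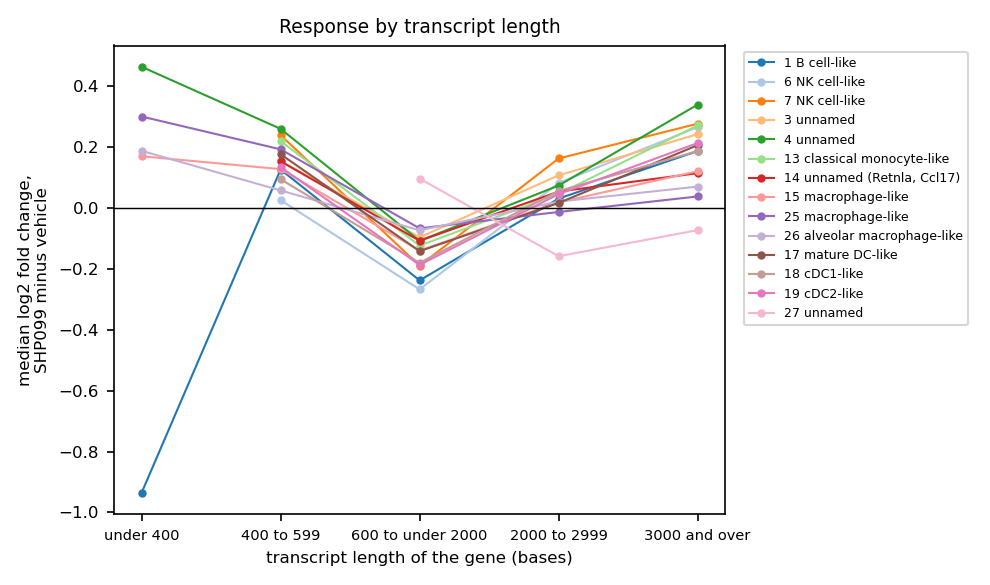
Median log2 fold change (SHP099 over vehicle) of genes in bins of transcript length (bases), with 1 line per compared cluster and bins of under 20 genes not drawn. Genes of 600 to under 2000 bases lie below 0 in all clusters but cluster 27, and genes of 3000 bases and over lie above 0 in all but cluster 27.

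The same genes were read in SHP099+SX682 mice against SX682 mice, which are 6 other mice in 2 other captures. There 155 of the 7898 genes were called higher in 3 or more clusters and lower in none (1.96%), and 82 lower (1.04%). Of the 178 genes shared higher in SHP099 mice, 79 were called higher in 3 or more clusters there, 1 was called lower in 3 or more, and 158 had a median log2 fold change above 0, beside 3798 of all 7898. Of the 209 shared lower, 53 were called lower in 3 or more clusters there, 3 higher in 3 or more, and 22 had a median above 0. In any cluster there, 128 of the shared higher genes were called higher and 5 lower, and 130 of the shared lower genes were called lower and 17 higher. Chchd2 was called in 3 clusters there, Hspe1 in 4, and H2-T23 in 1. Cirbp, called lower in 11 clusters under SHP099, was called in 0 there, and Dnaja1, called in 6, in 0. These differences in number were not tested.

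**Figure D4:**
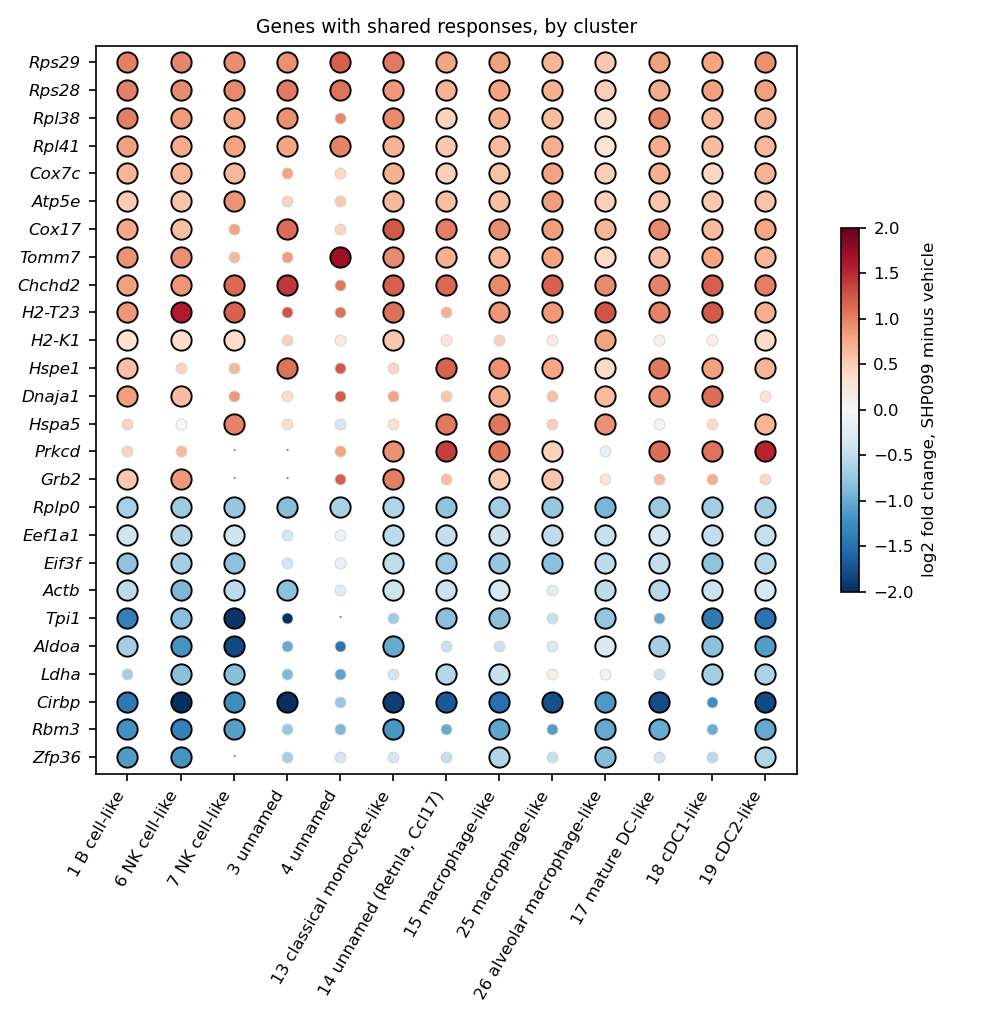
Log2 fold change (SHP099 over vehicle) of 26 genes with shared responses, in 1 column per compared cluster but cluster 27. Large outlined points are calls and small points are genes tested and not called. Rps29 and Rpl41 are higher and Rplp0 lower in nearly every cluster, with 13 calls each.

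Hspe1 and Dnaja1 led the chaperone genes. Of 14 heat shock genes, 1 to 4 were called higher in each of 11 clusters, and the call the other way was Hspb1 in cluster 26. In the clusters with calls, 1.14% (cluster 4) to 5.62% (cluster 7) of all genes tested were called higher. A count of 1 heat shock gene may lie near that share, and the counts were not tested against it. Hspe1, the cochaperonin of the mitochondrial Hsp60 folding chamber, was higher in 9 of 13 clusters. In cluster 14 it stood at 670, 810 and 869 CPM in SHP099 mice and 340, 357 and 339 CPM in vehicle mice (log2 fold change 1.18 ± 0.16, edgeR adjusted p = 1.76e-05). In mature dendritic cell-like cells of cluster 17 it stood at 659, 563 and 781 CPM in SHP099 mice and 256, 342 and 360 CPM in vehicle mice (log2 fold change 1.06 ± 0.16). No mouse of one group reached the other. Dnaja1, a cytosolic cochaperone of Hsp70, was higher in 6 clusters. In cluster 1 it stood at 271, 282 and 310 CPM in SHP099 mice and 148, 188 and 139 CPM in vehicle mice (log2 fold change 0.84 ± 0.16, edgeR adjusted p = 0.000563), but the gene overlaps Smu1 and reads of the pair may be mixed.

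The promoters of these genes are shown because heat shock factor 1 binds inverted repeats of nGAAn, and both rose in several cell types. Capitals mark the letters GAANNTTC and TTCNNGAA, searched on both strands, in windows from 250 bases before to 50 bases after the start in RefSeq (GRCm38.p6): Hspe1 at chr1:55087898-55088197 (plus strand) and Dnaja1 at chr4:40722218-40722517 (plus strand).
Hspe1: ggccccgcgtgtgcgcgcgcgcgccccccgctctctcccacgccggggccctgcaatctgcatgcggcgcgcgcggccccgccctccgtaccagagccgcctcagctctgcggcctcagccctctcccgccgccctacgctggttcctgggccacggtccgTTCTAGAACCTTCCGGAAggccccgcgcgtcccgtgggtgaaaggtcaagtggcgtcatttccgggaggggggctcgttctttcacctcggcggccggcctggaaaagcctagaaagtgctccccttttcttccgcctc
Dnaja1: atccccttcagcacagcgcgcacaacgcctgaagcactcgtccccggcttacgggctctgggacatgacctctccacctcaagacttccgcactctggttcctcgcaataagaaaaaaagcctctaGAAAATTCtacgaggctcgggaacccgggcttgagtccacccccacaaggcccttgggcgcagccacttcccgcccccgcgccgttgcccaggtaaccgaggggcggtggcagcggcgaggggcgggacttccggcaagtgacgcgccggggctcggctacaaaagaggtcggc
In the Hspe1 window the matches overlap one another. Dnaja1 has 2 further windows in the table, which held neither motif. Of the 14 heat shock genes 11 were in the table, with 17 windows, of which 10 held either motif, and 9 of the 11 genes had such a window. Of all 27025 genes in the table, 17% had one. Of 32851 promoter windows, 7.86% held GAANNTTC, 8.52% held TTCNNGAA and 15.1% held either. The list is of heat shock genes, so its share of such windows does not depend on the response here. Windows of Hspe1 and Hspd1 overlap, as do the 2 of Hsph1, so they are not separate counts. A match describes letters only, and binding was not measured.

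Hspa5 (BiP), which binds unfolded proteins in the endoplasmic reticulum, was higher in clusters 7, 14, 15, 19 and 26. In cluster 26 it stood at 332, 418 and 523 CPM in SHP099 mice and 235, 214 and 216 CPM in vehicle mice (log2 fold change 0.91 ± 0.12, edgeR adjusted p = 2.66e-06). Of the unfolded protein response genes, 6 of 15 tested rose and 1 fell in cluster 15, 5 of 14 rose in cluster 26, and in cluster 25, 2 of 16 rose and 3 fell. Among all genes, 2.29% were higher and 2.53% lower in cluster 15, and 4.54% were higher in cluster 26. In cluster 25 the shares of all genes were 4.00% higher and 2.78% lower. The 3 that fell in cluster 25 were Atf4, Ddit3 and Trib3, which belong to the branch that stops translation under stress. Trib3, a pseudokinase induced by Ddit3, stood in cluster 25 at 4.49, 1.04 and 0.962 CPM in SHP099 mice and 19.7, 20.4 and 9.91 CPM in vehicle mice (log2 fold change -2.87 ± 0.53, edgeR adjusted p = 0.00126). Ddit3 (CHOP) stood at 26.9, 32.1 and 20.2 CPM in SHP099 mice and 93.0, 66.8 and 44.3 CPM in vehicle mice (log2 fold change -1.40 ± 0.28, edgeR adjusted p = 0.00582). Mthfd2, a mitochondrial folate enzyme picked after its values were seen, was lower in the same cells, with a log2 fold change of -1.46 ± 0.27.

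MHC class I genes were called higher in lymphoid and in myeloid clusters. H2-T23 encodes Qa-1, the class I molecule that presents a leader peptide to the NK receptor NKG2A, and lies on chromosome 17 (36029773 to 36032855, minus strand). It was higher in 10 of 13 clusters. In NK cell-like cells of cluster 6 it stood at 314, 333 and 309 CPM in SHP099 mice and 88.3, 133 and 79.0 CPM in vehicle mice (log2 fold change 1.61 ± 0.22, edgeR adjusted p = 3.28e-08). In cluster 26 it stood at 202, 201 and 233 CPM in SHP099 mice and 77.5, 92.9 and 98.7 CPM in vehicle mice (log2 fold change 1.26 ± 0.14). The groups did not overlap in either. H2-K1, a classical class I heavy chain, rose less, in 6 clusters, with a log2 fold change of 0.37 ± 0.08 in cluster 6. Of 20 class I genes, 6 were higher and 0 lower in cluster 19, and 6 and 1 in cluster 25. Among all genes, 3.21% were higher and 4.00% lower in cluster 19, and 4.00% and 2.78% in cluster 25. In cluster 6, 5 class I genes were higher (beside 5.23% of all genes) and 4 lower (7.48%). The 4 were the proteasome genes Psmb8, Psmb10, Psme1 and Psme2. H2-T23 has close paralogs in the same region, so its reads may be shared.

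MHC class II genes fell in B cell-like and cDC2-like cells. Of 12 genes, 8 were lower and 0 higher in cluster 1, and 6 and 0 in cluster 19. Among all genes, 5.95% were lower in cluster 1 and 4.00% in cluster 19. Cd74, the invariant chain, stood in cluster 1 at 15536, 12993 and 15729 CPM in SHP099 mice and 23576, 24751 and 22493 CPM in vehicle mice (log2 fold change -0.68 ± 0.07, edgeR adjusted p = 2.05e-07). In cluster 19 its log2 fold change was -0.57 ± 0.07. H2-Aa, an alpha chain, stood in cluster 1 at 4301, 3536 and 4304 CPM in SHP099 mice and 6504, 6828 and 6292 CPM in vehicle mice. With transcript length removed, 6 of the 12 remained lower in cluster 1 and 4 in cluster 19. In NK cell-like cells H2-Aa stood at 30.2, 34.7 and 20.6 CPM in SHP099 mice and 246, 266 and 148 CPM in vehicle mice, but its level there was under 5% of that in other cells, and the part of free RNA in it was not tested.

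Summed levels of marker genes of other cell types also differed between the groups. The summed level of 8 tumour epithelial markers was lower in SHP099 mice, without overlap, in 12 of the 14 clusters. It was 29.2 to 53.1 CPM in SHP099 mice and 195 to 245 CPM in vehicle mice in cluster 1, and 35.2 to 40.9 CPM in SHP099 mice and 250 to 344 CPM in vehicle mice in cluster 15. The exceptions were clusters 14 and 26. The summed level of 9 macrophage markers was lower in 8 clusters, of which clusters 15, 25 and 26 are themselves macrophage-like. In cluster 1 it was 337 to 404 CPM in SHP099 mice and 768 to 1043 CPM in vehicle mice. The summed level of 5 mesothelial markers was lower in 10 clusters and higher in cluster 26, and this list shares Krt19 with the tumour list. That of 6 platelet markers was lower in 5 clusters, and each remaining list was lower in at most 4. Lists were higher without overlap in at most 4 clusters each. The 8 T cell markers were higher in clusters 1, 4 and 17, at 341 to 653 CPM in SHP099 mice and 188 to 224 CPM in vehicle mice in cluster 1. The 7 nonclassical monocyte markers were higher in clusters 4, 6, 25 and 26, at 574 to 679 CPM in SHP099 mice and 311 to 325 CPM in vehicle mice in cluster 6. Fabp4 is 1 of these 7, and its own rise in clusters 25 and 26 is described below. The part of these shifts in the calls of those clusters, the class II, lysosome and glycolysis genes included, was not tested.

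Genes of glycolysis were called lower in lymphoid, dendritic and alveolar macrophage-like cells. Of the glycolysis and hypoxia genes tested, 5 of 10 were lower in cluster 6 (beside 7.48% of all genes there) and 5 of 9 in cluster 7 (6.78%). In cluster 18, 5 of 15 were lower (1.93%), and in cluster 19, 7 of 18 (4.00%). In cluster 26 it was 5 of 18 (4.45%), and in cluster 1, 4 of 15 (5.95%). Aldoa, which splits fructose bisphosphate, stood in the NK cell-like cluster 7 at 172, 205 and 110 CPM in SHP099 mice and 624, 604 and 565 CPM in vehicle mice (log2 fold change -1.80 ± 0.30, edgeR adjusted p = 3.2e-05). Ldha, lactate dehydrogenase A, stood in cluster 6 at 194, 180 and 195 CPM in SHP099 mice and 344, 345 and 326 CPM in vehicle mice (log2 fold change -0.84 ± 0.18, edgeR adjusted p = 0.00058). Tpi1, triose phosphate isomerase, was lower in 8 clusters but overlaps Spsb2. The macrophage-like cluster 25 had 0 lower and 2 higher of 19, beside 2.78% lower and 4.00% higher of all genes. There Gapdh stood at 1845, 2153 and 1920 CPM in SHP099 mice and 1422, 1618 and 1416 CPM in vehicle mice, and its log2 fold change exceeded the mean of the other clusters by 0.64 (limma adjusted p = 0.0015).

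Vegfa, the main vascular growth factor and a member of the same list, went the other way. It was called higher in clusters 13, 14, 15 and 19 of 7 tested. In the macrophage-like cluster 15 it stood at 90.6, 115 and 52.8 CPM in SHP099 mice and 24.95, 32.5 and 41.0 CPM in vehicle mice (log2 fold change 1.48 ± 0.26, edgeR adjusted p = 0.00331). Each SHP099 mouse was above each vehicle mouse, but the call was lost when every mouse was cut to equal cell numbers. In 6 of the 7 clusters tested its log2 fold change was above 0.

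Actb, Pfn1, Cirbp and Rbm3 were lower in many cell types. Actb, beta actin, was lower in 11 of 14 clusters. In NK cell-like cells of cluster 6 it stood at 7463, 6709 and 6674 CPM in SHP099 mice and 12210.4, 12993 and 13611 CPM in vehicle mice (log2 fold change -0.89 ± 0.08, edgeR adjusted p = 2.14e-15). That fall exceeded the mean of the other clusters by 0.47 ± 0.07 (limma adjusted p = 0.00024). Pfn1, an actin-binding protein, was lower in 12 clusters. Cirbp, a cold-inducible RNA-binding protein on chromosome 10 (80165985 to 80172786, plus strand), was lower in 11 of 13 clusters. In cluster 1 it stood at 133, 117 and 74.5 CPM in SHP099 mice and 366, 272 and 225 CPM in vehicle mice (log2 fold change -1.44 ± 0.21, edgeR adjusted p = 0.000215). Rbm3, its relative, stood in cluster 6 at 513, 513 and 360 CPM in SHP099 mice and 1226, 1286 and 1086 CPM in vehicle mice (log2 fold change -1.35 ± 0.24, edgeR adjusted p = 0.00259).

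Immediate early genes, which stimuli and tissue handling both induce, were called lower and, apart from Jund in cluster 18, not higher. Of 19 genes, 1 to 4 were lower in each of 10 clusters. Over the clusters with calls, 0.214% (cluster 4) to 7.48% (cluster 6) of all genes tested were called lower. Where only 1 listed gene was lower, the count may lie near that share, and it was not tested against it. Zfp36, which destabilises cytokine messages, was lower in 5 clusters. In cluster 1 it stood at 160, 241 and 166 CPM in SHP099 mice and 434, 384 and 416 CPM in vehicle mice (log2 fold change -1.14 ± 0.15, edgeR adjusted p = 1.69e-06). Fos stood in the monocyte-like cluster 13 at 2065, 1754 and 2109 CPM in SHP099 mice and 3912, 2793 and 3160 CPM in vehicle mice (log2 fold change -0.74 ± 0.13, edgeR adjusted p = 0.00066). Jun, its partner in AP-1, was lower in clusters 6, 15 and 25, with a log2 fold change of -0.95 ± 0.17 in cluster 25.

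The pathway of the drug's target was read next. Ptpn11 itself, on chromosome 5 (121130533 to 121191397, minus strand), was not called in any of the 8 clusters in which it was tested, with log2 fold changes of -0.50 to 0.54 and adjusted p of 0.252 to 0.998. In cluster 26 it stood at 31.1, 32.0 and 20.1 CPM in SHP099 mice and 29.6, 27.4 and 22.9 CPM in vehicle mice. SHP099 acts on the protein, so its message is no check of the treatment. Of the SHP2 and Ras pathway genes, at most 2 were called higher in any cluster. In the clusters with calls, 1.14% (cluster 4) to 5.62% (cluster 7) of all genes tested were higher. Counts of 1 or 2 pathway genes may lie near that share and were not tested against it. Grb2, the adaptor that carries SOS to receptors and to SHP2, was higher in 5 clusters. In cluster 25 it stood at 227, 261 and 284 CPM in SHP099 mice and 169, 175 and 182 CPM in vehicle mice (log2 fold change 0.55 ± 0.11, edgeR adjusted p = 0.00164).

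Targets and feedback genes of ERK were called lower in 8 clusters, 1 or 2 genes each, and 1, Spry2, was called higher in cluster 6. The lower calls were 2 of 6 genes tested in cluster 26 (beside 4.45% of all genes there), 2 of 11 in cluster 15 (2.53%) and 2 of 8 in cluster 19 (4.00%). They were 1 of 5 in cluster 1 (5.95%), 1 of 2 in cluster 4 (0.214%), 1 of 4 in cluster 13 (2.75%), 1 of 5 in cluster 14 (2.49%) and 1 of 8 in cluster 25 (2.78%). In the alveolar macrophage-like cluster 26, Dusp6, the phosphatase that switches ERK off and a direct product of its activity, stood at 5.57, 14.4 and 4.02 CPM in SHP099 mice and 27.9, 20.1 and 48.2 CPM in vehicle mice (log2 fold change -1.80 ± 0.37, edgeR adjusted p = 0.000955). The highest SHP099 mouse was below the lowest vehicle mouse. Dusp5, a nuclear ERK phosphatase, stood there at 35.8, 59.6 and 46.2 CPM in SHP099 mice and 81.0, 80.2 and 91.8 CPM in vehicle mice (log2 fold change -0.84 ± 0.19). Its call was lost without SHP099 mouse 1 (log2 fold change -0.62, edgeR adjusted p = 0.0803) and with equal cell numbers (0.0628). Myc, a growth regulator, stood in cluster 1 at 63.8, 72.2 and 57.9 CPM in SHP099 mice and 108, 145 and 172 CPM in vehicle mice (log2 fold change -1.04). With equal cell numbers its call was lost, at a log2 fold change of -0.35 and an edgeR adjusted p of 0.617. Ccnd1, cyclin D1, was lower in cluster 14 (log2 fold change -1.24 ± 0.28, adjusted p = 0.00634), overlaps LTO1, and lost its call without SHP099 mouse 2 (adjusted p = 0.0638). In cluster 4, Egr1 stood at 11.99, 0 and 17.5 CPM in SHP099 mice and 425, 253 and 401 CPM in vehicle mice, with a log2 fold change of -5.03 ± 0.86 and an edgeR adjusted p of 0.0101, which was 0.0542 to 0.0768 without any SHP099 mouse or without vehicle mouse 3.

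Prkcd, a protein kinase C that acts in apoptosis and B cell tolerance, was higher in 7 of 11 clusters. In the cDC2-like cluster 19 it stood at 476, 590 and 504 CPM in SHP099 mice and 180, 168 and 202 CPM in vehicle mice (log2 fold change 1.53 ± 0.15, edgeR adjusted p = 2.04e-07). In cluster 14 it stood at 869, 692 and 802 CPM in SHP099 mice and 310, 245 and 346 CPM in vehicle mice (log2 fold change 1.38 ± 0.15). In both the rise exceeded the mean of the other clusters, by 0.98 ± 0.14 in cluster 19 (limma adjusted p = 0.00088) and by 0.84 ± 0.17 in cluster 14 (0.012).

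Responses of single cell types were tested as a difference: the log2 fold change in a cluster minus its mean over the other compared clusters, within each mouse (limma, Benjamini-Hochberg within the cluster). Clusters 26 and 25 had the most such genes, and in both the SHP099 cells had more UMIs. In cluster 25 the median was 7801 to 9083 UMIs per cell in SHP099 mice and 5623 to 6279.5 in vehicle mice. The difference test was not run with equal cell numbers, and the part of depth and cell number in this ranking was not tested. In cluster 26, 289 of 3431 genes differed (8.42%), and in cluster 25, 262 of 3447 (7.60%). In cluster 6, 53 of 3050 differed (1.74%), in cluster 19, 17 of 3444 (0.494%), in cluster 14, 12 of 3182 (0.377%), in cluster 4, 8 of 1310 (0.611%), in cluster 1, 5 of 3388 (0.148%), in cluster 17, 3 of 2910 (0.103%), and in cluster 13, 1 of 2589 (0.0386%). In clusters 3, 7, 15, 18 and 27 limma called 0, against 145, 131, 317, 228 and 14 genes at an unadjusted p below 0.05. The total of 650 was 369 without vehicle mouse 3 and 438 to 592 without each of the others.

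In the alveolar macrophage-like cluster 26, the cells that take up surfactant at the air surface, Rgcc, a cell cycle regulator induced by complement on chromosome 14 (79288756 to 79301645, minus strand), rose. It stood at 520, 571 and 464 CPM in SHP099 mice and 123, 129 and 170 CPM in vehicle mice (log2 fold change 1.93 ± 0.14, edgeR adjusted p = 4.34e-09), exceeding the other clusters by 1.92 ± 0.21 (limma adjusted p = 8.8e-05). Rgcc was also called higher in the macrophage-like cluster 25, at 303, 329 and 184 CPM in SHP099 mice and 52.9, 95.6 and 126 CPM in vehicle mice (log2 fold change 1.60 ± 0.36, edgeR adjusted p = 0.0353). There the difference from the other clusters was 1.62 ± 0.42 (limma adjusted p = 0.0599), and the edgeR call was lost without SHP099 mouse 1 or 2 or vehicle mouse 1 or 2. Wfdc21, a small secreted protein, stood at 1288, 1202 and 1280 CPM in SHP099 mice and 135, 189 and 138 CPM in vehicle mice (log2 fold change 3.02 ± 0.22, edgeR adjusted p = 2.15e-05). It passed the filter in too few other clusters for a difference test. Ahnak, a giant scaffold protein, stood at 305, 244 and 221 CPM in SHP099 mice and 81.9, 107 and 91.8 CPM in vehicle mice, with a difference of 1.27 from the other clusters (limma adjusted p = 5e-06). In cluster 26 each group was tight and apart from the other for these 3 genes.

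Among the genes lower in cluster 26 were Irf5, Map3k1 and Nr4a1, of which Irf5 and Map3k1 were picked after their values were seen. Irf5, a transcription factor of inflammatory macrophages, stood at 11.2, 22.1 and 12.1 CPM in SHP099 mice and 40.1, 38.0 and 50.5 CPM in vehicle mice (log2 fold change -1.45 ± 0.27, edgeR adjusted p = 0.000277) and differed from the other clusters by -1.41 (limma adjusted p = 0.0014), though it overlaps Tnpo3. Map3k1, a kinase above JNK, stood at 13.5, 13.3 and 8.04 CPM in SHP099 mice and 34.8, 35.9 and 34.4 CPM in vehicle mice and differed by -1.89 (limma adjusted p = 3.1e-05). Nr4a1, an orphan nuclear receptor induced by stimuli, stood at 31.9, 44.2 and 22.1 CPM in SHP099 mice and 55.8, 62.3 and 103 CPM in vehicle mice. With equal cell numbers Map3k1 and Nr4a1 were no longer called. Of 21 lysosomal genes, 8 rose and 1 fell in these cells, beside 4.54% higher and 4.45% lower of all genes.

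Chemokines and their receptors in cluster 26 moved in both directions. Cxcr1, a receptor for CXC chemokines and one of the targets of SX682, stood at 132, 129 and 113 CPM in SHP099 mice and 53.1, 65.4 and 32.1 CPM in vehicle mice (log2 fold change 1.24 ± 0.18, edgeR adjusted p = 1.49e-05). Cxcl14, a chemokine of epithelia and macrophages, stood at 8.76, 13.3 and 10.1 CPM in SHP099 mice and 48.8, 55.9 and 71.1 CPM in vehicle mice (log2 fold change -2.40 ± 0.27, edgeR adjusted p = 1.15e-07). C5ar1, the receptor for complement C5a, stood at 53.4, 56.3 and 54.3 CPM in SHP099 mice and 125, 99.19 and 96.4 CPM in vehicle mice (log2 fold change -0.99 ± 0.17, edgeR adjusted p = 8.39e-05). Cxcl2, which draws neutrophils, was lower, but its level in these cells was under 5% of that in another cell set. Csf1r, Ccl2, Cxcl1, Cxcl3, Cxcl9 and Cxcl10 were not called in any compared cluster. The summed level of 7 nonclassical monocyte markers in cluster 26 was 1637 to 2012 CPM in SHP099 mice and 666 to 853 CPM in vehicle mice. Of the 5 tested there, 1 was called higher, Fabp4, and 2 lower. Fabp4, described next, holds most of that sum, so the sum is not separate from its rise. The part of the other markers in the results of this cluster was not tested.

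Fabp4 rose in clusters 25, 26 and 17 of 4 tested, and sterol genes rose in cluster 25. Fabp4, a fatty acid carrier, stood in cluster 26 at 1603, 1860 and 2042 CPM in SHP099 mice and 606, 758 and 528 CPM in vehicle mice (log2 fold change 1.53), and in cluster 25 at 1569, 968 and 1301 CPM in SHP099 mice and 365, 350 and 507 CPM in vehicle mice (log2 fold change 1.65 ± 0.27, edgeR adjusted p = 0.00843). In the mature dendritic cell-like cluster 17 it stood at 43.3, 171 and 260 CPM in SHP099 mice and 16.7, 6.84 and 7.51 CPM in vehicle mice (log2 fold change 3.76 ± 0.84, edgeR adjusted p = 0.0351), a call lost without any 1 mouse other than SHP099 mouse 1. Igf1, a growth factor, stood in cluster 25 at 496, 404 and 404 CPM in SHP099 mice and 159, 171 and 250 CPM in vehicle mice (log2 fold change 1.18 ± 0.15). In cluster 25, 8 of 16 cholesterol genes were higher and 0 lower, with a median of 0.68 beside -0.01 over all genes. The share of all genes called higher there was 4.00%. Cyp51, lanosterol demethylase, stood at 29.6, 21.7 and 31.8 CPM in SHP099 mice and 11.7, 11.95 and 8.59 CPM in vehicle mice (log2 fold change 1.35 ± 0.27, edgeR adjusted p = 0.00233). It exceeded the other clusters by 1.28 (limma adjusted p = 0.021) and overlaps Akap9. Ctsd, a lysosomal protease that overlaps Gm49369, and Mertk, a receptor for dying cells, rose in cluster 25 by 0.65 and 0.78 on the log2 scale. In that cluster the summed level of 9 macrophage markers was 11789 to 17339 CPM in SHP099 mice and 21418 to 26819 CPM in vehicle mice. That of 7 nonclassical monocyte markers was 1041 to 1444 CPM in SHP099 mice and 479 to 647 CPM in vehicle mice. Fabp4 is 1 of these 7 and, at the levels given above, holds most of their sum. That sum is therefore not separate from the rise of Fabp4. The part of these shifts in those results was not tested.

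**Figure D5:**
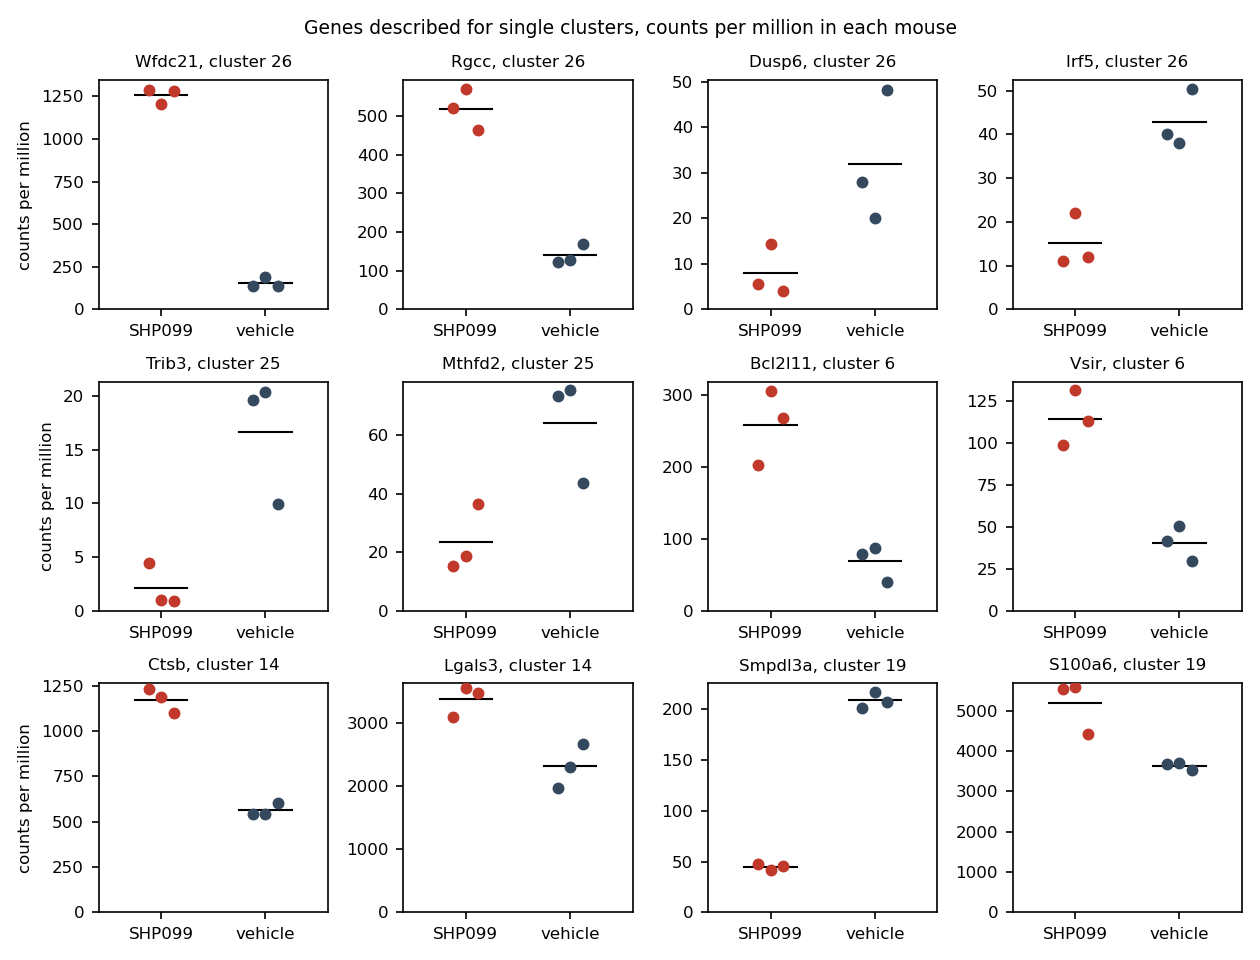
CPM in each mouse (axes from 0, bars at the mean) for genes described in the accounts of single clusters, with SHP099 mice left of vehicle mice. Rgcc in cluster 26 lies at 464 to 571 in SHP099 mice and 123 to 170 in vehicle mice.

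In NK cell-like cells of cluster 6, genes of opposite roles in cell death rose together. Bcl2l11 (BIM), which promotes apoptosis, stood at 202, 305 and 267 CPM in SHP099 mice and 79.0, 87.3 and 39.5 CPM in vehicle mice (log2 fold change 1.74 ± 0.27, edgeR adjusted p = 7.37e-07). Bcl2, which opposes it, stood at 530, 527 and 504 CPM in SHP099 mice and 297, 262 and 237 CPM in vehicle mice (log2 fold change 0.95 ± 0.17, edgeR adjusted p = 1.22e-05). They exceeded the other clusters by 1.32 (limma adjusted p = 0.0066) and 0.95 (0.0028), and both were picked after their values were seen. Vsir, the inhibitory receptor VISTA, stood at 99.05, 132 and 113 CPM in SHP099 mice and 41.8, 50.5 and 29.6 CPM in vehicle mice, with a difference of 1.28 (limma adjusted p = 0.022). Of 11 cytotoxic genes tested, 4 were lower, Ctsw, Gzma, Ifng and Srgn, and 0 higher, but 0 were called once the trend on transcript length was removed. The share of all genes called lower in this cluster was 7.48%. Gzma, granzyme A, stood at 15163, 13286 and 13852 CPM in SHP099 mice and 18021, 19543 and 20184 CPM in vehicle mice.

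In cluster 14, Ctsb, Acp5 and Lgals3 rose. Ctsb, cathepsin B on chromosome 14 (63122462 to 63145923), stood at 1230, 1189 and 1099 CPM in SHP099 mice and 543, 544 and 602 CPM in vehicle mice (log2 fold change 1.06 ± 0.14, edgeR adjusted p = 1.76e-05), and it overlaps Fdft1. Acp5, an acid phosphatase of macrophages and osteoclasts, stood at 446, 559 and 556 CPM in SHP099 mice and 209, 236 and 199 CPM in vehicle mice, exceeding the other clusters by 1.27 (limma adjusted p = 0.0017). Lgals3, galectin 3, stood at 3097, 3563 and 3485 CPM in SHP099 mice and 1979, 2314 and 2674 CPM in vehicle mice (log2 fold change 0.54 ± 0.11). Of 20 lysosomal genes tested there, 5 rose and 0 fell, beside 0 and 5 in cluster 1. Among all genes, 2.60% were higher in cluster 14 and 5.95% lower in cluster 1.

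Genes of the cDC2-like cluster 19 and of the mature cluster 17 changed in both directions. Clusters 17, 18 and 19 were not tested against one another. In the cDC2-like cluster 19, Smpdl3a, a phosphodiesterase induced by liver X receptors, stood at 48.1, 41.7 and 45.3 CPM in SHP099 mice and 201, 217 and 208 CPM in vehicle mice (log2 fold change -2.23 ± 0.21, edgeR adjusted p = 1.11e-07), a fall larger than in the other clusters by 1.78 on the log2 scale (limma difference -1.78, adjusted p = 1.7e-05). Mgl2, a lectin of this kind of cell, stood at 539, 456 and 589 CPM in SHP099 mice and 847, 991 and 1236 CPM in vehicle mice (log2 fold change -0.97 ± 0.14). S100a6, a calcium-binding protein, stood at 5534, 5584 and 4423 CPM in SHP099 mice and 3677, 3699 and 3539 CPM in vehicle mice (log2 fold change 0.51 ± 0.09). In mature dendritic cell-like cells of cluster 17, Ccl22, which attracts regulatory T cells through CCR4, stood at 2210, 2128 and 2226 CPM in SHP099 mice and 1083, 1279 and 1314 CPM in vehicle mice (log2 fold change 0.84 ± 0.12, edgeR adjusted p = 6.55e-06). Mt1, a metallothionein, stood there at 784, 769 and 648 CPM in SHP099 mice and 384, 421 and 451 CPM in vehicle mice (log2 fold change 0.82 ± 0.16).

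In B cell-like cells of cluster 1, Cd69, an early activation marker that holds cells in tissue, stood at 167, 210 and 172 CPM in SHP099 mice and 312, 371 and 410 CPM in vehicle mice (log2 fold change -0.98 ± 0.15, edgeR adjusted p = 9.52e-06). The fall differed from the other clusters by -0.78 (limma adjusted p = 0.048). Of 28 type I interferon genes, 12 were tested in these cells, with 1 higher (Ifi203) and 2 lower (Ifitm3 and Ly6e). Among all genes there, 4.07% were higher and 5.95% lower. The counts may lie near those shares and were not tested against them.

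Clusters with too few cells in some mice were fitted as an alternative chosen after seeing the data. In endothelial-like cells of cluster 10, where SHP099 mice 2 and 3 had 8 and 5 cells, 12 of 3043 genes were higher (0.394%) and 20 lower (0.657%). Dusp6 stood at 56.1, 80.9 and 0 CPM in SHP099 mice and 269, 451 and 275 CPM in vehicle mice (log2 fold change -2.48 ± 0.55, edgeR adjusted p = 0.0118). Vegfa stood at 393, 405 and 658 CPM in SHP099 mice and 173, 45.1 and 165 CPM in vehicle mice (log2 fold change 1.48 ± 0.40, edgeR adjusted p = 0.047). Id3, an inhibitor of basic helix-loop-helix factors in vessels, stood at 1942, 1862 and 1974 CPM in SHP099 mice and 965, 406 and 990 CPM in vehicle mice. Gpihbp1, the capillary anchor of lipoprotein lipase, stood at 831, 567 and 752 CPM in SHP099 mice and 2195, 1850 and 3354 CPM in vehicle mice (log2 fold change -1.67). In lymphatic endothelial-like cells of cluster 11, with 6 to 8 cells in SHP099 mice, 4 of 2117 genes were higher (0.189%) and 14 lower (0.661%). Vegfa stood there at 1134, 116 and 225 CPM in SHP099 mice and 39.7, 60.01 and 71.5 CPM in vehicle mice.

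The monocyte-like cluster 12 had 6 cells in vehicle mouse 3, and 2 vehicle mice entered the fit. There 89 of 2593 genes were higher (3.43%) and 49 lower (1.89%). Among the higher were Rtp4 and Ifi204, which interferon induces. Rtp4 stood at 161, 162 and 59.3 CPM in SHP099 mice and 14.5 and 25.02 CPM in vehicle mice (log2 fold change 2.93 ± 0.55, edgeR adjusted p = 0.000721). Ifi204 had a log2 fold change of 1.39. Apoe, a lipid carrier of macrophages, stood at 1052, 1436 and 1325 CPM in SHP099 mice and 2918 and 3369 CPM in vehicle mice (log2 fold change -1.33). Cluster 16, the one whose share was lowest against vehicle, had 2 cells in SHP099 mouse 3, which was left out, and 13 and 17 in the others. There 17 of 9902 genes were higher (0.172%) and 49 lower (0.495%). Il1rn, the interleukin 1 receptor antagonist, stood at 699 and 528 CPM in SHP099 mice and 155, 183 and 208 CPM in vehicle mice (log2 fold change 1.75 ± 0.22, edgeR adjusted p = 0.00532). Vegfa stood at 423 and 255 CPM in SHP099 mice and 138, 94.9 and 134 CPM in vehicle mice. Gpx1, a glutathione peroxidase, stood at 1364 and 1381 CPM in SHP099 mice and 4392, 4138 and 3682 CPM in vehicle mice (log2 fold change -1.57 ± 0.22). The genes of these 4 clusters were chosen after their values were seen.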

How the data were processed

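Single-cell counts of UMIs per gene, the authors' cluster and hashtag calls, and their lists of neutrophils and T cells were used as deposited. Per the submitters' processing notes, Cell Ranger and the mm10 build were among the tools. No deposited cell has fewer than 500 UMIs or a mitochondrial share over 20%, hashtags had assigned each to a mouse, and no doublet caller was run here.

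UMIs were summed per mouse and cluster where every SHP099 and vehicle mouse had 10 cells or more. Genes kept by edgeR's filterByExpr were fitted with edgeR 4.0.16 (TMM, robust quasi-likelihood, R 4.3.3) on all 12 mice of 4 treatments, with the contrast SHP099 minus vehicle and an SE of the absolute log2 fold change over the root of F. Intervals and SEs cover the spread between 3 mice of 1 pool. Shares used edgeR on cell numbers. Differences between clusters used limma 3.58.1 on log2 CPM (prior count 2) in mice with 10 cells in all 14 clusters, which dropped 1 SHP099+SX682 mouse, and genes that passed the filter in the cluster and in 7 or more of the others. Alternatives were DESeq2 1.42.0, other scaling and filters, fewer samples, a replicate block, equal cell numbers, genes of free RNA left out, and a transcript length correction (GENCODE vM21). Genes were named if called in the most clusters, largest within a cluster with groups that did not overlap, or largest in the difference test. Members of a described list and fixed pathway genes were also named. Genes outside this rule were chosen after their values were seen. Among them were Irf5, Map3k1, Bcl2l11, Bcl2, Mthfd2 and Rbm3, and genes of the clusters with too few cells in some mice. The members and lists were chosen with earlier results of these data known. Scripts were tested on simulated data with known changes, where smaller changes were found less often than larger ones and false calls in cluster 26 ran above the threshold. Figures used matplotlib 3.10.9 in Python 3.11.15.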

Additional observations from a re-analysis of the deposited data

Results flagged for a closer look

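The results below differ between a cluster and the mean of the other compared clusters, with the mean log2 fold changes of opposite sign (limma, Benjamini-Hochberg adjusted within the cluster). That mean includes clusters in which the gene failed the filter, and Rhoc passed it in 9. Clusters 14 and 26 were also the exceptions to the lower summed tumour epithelial markers. The part of that shift in these results was not tested. Rhoc, a small GTPase of cell movement, rose by 0.75 on the log2 scale in the alveolar macrophage-like cluster 26, against a mean of -0.99 elsewhere, a difference of 1.74 ± 0.14 (SE, adjusted p = 1.92e-10).

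Ctsb, a lysosomal protease, had 1.04 in cluster 14 and -0.28 elsewhere, a difference of 1.32 ± 0.16 (adjusted p = 9.55e-06), and overlaps Fdft1. Lgals3 had 0.54 in cluster 14 and -0.53 elsewhere, a difference of 1.08 ± 0.12 (adjusted p = 3.65e-06). Hspa1a, an inducible Hsp70, had 0.89 in cluster 14 and -0.25 elsewhere, a difference of 1.14 ± 0.20 (adjusted p = 0.0019). It overlaps Gm20481, and its call within cluster 14 was lost without SHP099 mouse 1, vehicle mouse 2 or vehicle mouse 3 (adjusted p of 0.057 to 0.0678) and with equal cell numbers (adjusted p = 0.337).

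S100a6 had 0.50 in the cDC2-like cluster 19 and -0.76 elsewhere, a difference of 1.26 ± 0.10 (adjusted p = 5.02e-07). Mt1 had 0.79 in the mature dendritic cell-like cluster 17 and -0.34 elsewhere, a difference of 1.13 ± 0.16 (adjusted p = 5.05e-05). With equal cell numbers the calls of S100a6 and Mt1 within their own clusters were lost.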

How the results depend on the processing

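The count of genes called per cluster was 4131 in all. It was 1832 when each mouse was cut to equal cell numbers, and 2441 (without vehicle mouse 1) to 3529 (without vehicle mouse 3) when 1 mouse was left out, with 2627 without vehicle mouse 2. Each of the 6 mice moved the count of 1 or more clusters by over 1.5 times. Shared genes numbered 387, 160 with equal cell numbers, 205 to 334 without 1 mouse, and 237 in the contrast of SHP099+SX682 with SX682. Genes that differed between clusters numbered 650, and 369 to 592 without 1 mouse. Of 25 shares, 5 were called, and 1 to 5 without 1 mouse. Over all cells as denominator 7 shares were called, all lower, and those of clusters 1 and 9 were lost (log2 fold changes 0.94 and 1.14). Without 1 mouse the log2 fold changes of shares ranged from 1.03 to 1.53 in cluster 1, 1.22 to 1.82 in cluster 9, -2.44 to -1.73 in cluster 11, -4.86 to -3.75 in cluster 16 and -2.53 to -2.25 in cluster 20. DESeq2 called 2806 genes, and no filter on low counts 4967.

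Of 70 pairs of a gene and a cluster, 57 kept their call under every alternative that gave a result for them. Another 13 lost it under 1 or more, and 0 reversed. DESeq2 and the fit without free RNA genes gave results for 68 of the 70 pairs, and equal cell numbers for 69. Dusp6 in cluster 26 had results in 13 of 15 alternatives. Cxcl2 in cluster 26, H2-Aa in cluster 6 and Trib3 in cluster 25 had results in 14. Equal cell numbers lost 9 of 69, and the length correction, chosen after seeing the data, lost 1 of 70, Gzma in cluster 6. With the hashtag number as a replicate block, 4444 genes, 434 shared genes, 734 differences and 7 shares were called, and the block changed the call of 1 of the 70 pairs, Rgcc in cluster 25 (adjusted p = 0.0629). Same-numbered mice did not correlate above 0.1 for all 3 numbers in any cluster, so the numbers were not taken to pair the mice. Depth limited cluster 27, with 248 genes tested.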
